A study of Mus musculus with 28 samples.

Results

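The 8 genes Pcgf6, Mga, Max, L3mbtl2, E2f6, Rybp, Ring1 and Rnf2 encode core subunits of PRC1.6, a variant Polycomb repressive complex that keeps germline genes silent in embryonic stem cells. They were taken by symbol, and all 8 were found among the 24116 genes counted. The RNA came from RGd2 cells, a female mouse embryonic stem cell line whose WT and KO derivatives all carry a Rex1:GFPd2-IRES-Blasticidin reporter. Samples called ESC were kept naive in 2i (3 µM CHIR99021 with 1 µM PD0325901), and the others were collected 16 h or 32 h after 2i had been withdrawn. One set of 12 libraries was made from ribosome-depleted total RNA and held wild type (WT) and Zfp281 knockout (KO) cells at ESC, 16 h and 32 h. The other set of 16 libraries was made with an mRNA kit, here named polyA, and covered the ESC and 32 h stages of WT cells and of cells lacking Ehmt1, Zic2 or both (Ehmt1/Zic2 KO, here double KO). There were 14 groups with n = 2 libraries, 1 from each of 2 lines: the WT lines were WT and Zfp281_WT in the ribosome-depleted set and Ehmt1_WT and Zic2_WT in the polyA set, and each KO genotype had the lines KO1 and KO2. All levels below are CPM, counts divided by the TMM-normalised library size, and the kits and the separately deposited 16 h libraries are never compared with a test.

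Polycomb repressive complexes of type 1 ubiquitinate histone H2A through the RING proteins Ring1 and Rnf2 (Ring1b), and each variant is set by its PCGF subunit, which is Pcgf6 in PRC1.6. The DNA-binding part of PRC1.6 consists of Mga with its dimer partner Max, which read the E-box CACGTG, and of E2f6 with a DP partner, which reads E2F-type sequences. L3mbtl2 is an MBT-domain protein of the complex, and Rybp, which can be replaced by its paralogue Yaf2, stimulates the RING proteins. In mouse embryonic stem cells, loss of Pcgf6, Mga, Max, E2f6 or L3mbtl2 is known to derepress meiosis and germ cell genes. The H3K9 methyltransferases Ehmt1 and Ehmt2 were purified together with E2f6.

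Matches to CACGTG, to the E2F-type TCCCGC and to the T-box sequence TCACACCT were searched on both strands of RefSeq windows (GRCm38.p6, 250 bases before to 50 after a gene's start). Of 22 germline targets listed for this complex, 21 had a window, and 11 of these held CACGTG against 8.093% of all 27025 genes with windows. TCCCGC was also in 11 of 21, against 22.05% of all genes, and both were in 7 of 21, against 2.646%. TCACACCT was in 1 of 21, against 1.476%. The called targets with the most matches over the whole window are Sycp3, Hormad1 and Mael. Ddx4 and Slc25a31 tied with Sycp1 and Stag3 at 2 matches and were taken because they were called in more comparisons. These 5 are printed here as the 250 bases before the start, on the gene's strand, with matches on either strand in capitals (TCCCGC reads GCGGGA and TCACACCT reads AGGTGTGA on the other strand). Matches in these windows did not overlap, and a match is a description of the letters, not a measured binding site. The genes are Sycp3 (chr10:88459337-88459586, + strand) and Hormad1 (chr3:95559427-95559676, + strand), which encode proteins of the meiotic chromosome axis. Mael (chr1:166238745-166238994, - strand) and Ddx4 (chr13:112652311-112652560, - strand) act in the germ cell piRNA pathway. A further TCCCGC of Mael, at position 11, lies after the start, outside the printed stretch. Slc25a31 (chr3:40708621-40708870, + strand) encodes a testis ADP/ATP carrier, and its TCCCGC lies after the start, outside the printed stretch.
Sycp3: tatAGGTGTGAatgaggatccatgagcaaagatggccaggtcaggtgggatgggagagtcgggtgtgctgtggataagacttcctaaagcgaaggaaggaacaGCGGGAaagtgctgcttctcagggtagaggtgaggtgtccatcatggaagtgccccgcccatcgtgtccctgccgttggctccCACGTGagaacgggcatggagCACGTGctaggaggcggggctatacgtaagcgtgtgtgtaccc
Hormad1: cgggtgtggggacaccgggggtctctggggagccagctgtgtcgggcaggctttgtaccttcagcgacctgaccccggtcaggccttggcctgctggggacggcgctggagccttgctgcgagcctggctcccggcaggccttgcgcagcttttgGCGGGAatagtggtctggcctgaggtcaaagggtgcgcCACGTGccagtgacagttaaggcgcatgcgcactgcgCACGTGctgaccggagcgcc
Mael: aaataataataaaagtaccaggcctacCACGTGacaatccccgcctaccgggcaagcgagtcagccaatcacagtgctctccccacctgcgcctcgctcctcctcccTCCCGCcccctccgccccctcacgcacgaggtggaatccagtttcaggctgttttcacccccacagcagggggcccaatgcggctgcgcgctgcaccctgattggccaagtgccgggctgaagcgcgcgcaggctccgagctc
Ddx4: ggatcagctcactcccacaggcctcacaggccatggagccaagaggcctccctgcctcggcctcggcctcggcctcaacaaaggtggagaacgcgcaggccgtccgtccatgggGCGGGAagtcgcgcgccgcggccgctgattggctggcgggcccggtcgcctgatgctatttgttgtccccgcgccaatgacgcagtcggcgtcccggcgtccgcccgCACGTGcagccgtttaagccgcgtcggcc
Slc25a31: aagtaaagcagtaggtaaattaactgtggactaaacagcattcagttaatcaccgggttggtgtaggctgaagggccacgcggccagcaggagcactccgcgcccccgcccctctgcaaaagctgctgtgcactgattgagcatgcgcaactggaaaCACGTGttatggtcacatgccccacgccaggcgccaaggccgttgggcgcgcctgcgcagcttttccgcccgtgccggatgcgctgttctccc

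In GRCm38 the 8 genes lie at chr19:47033617-47050939 (Pcgf6), chr2:119872503-119970129 (Mga), chr12:76937269-76962323 (Max), chr15:81663889-81688315 (L3mbtl2), chr12:16810909-16826752 (E2f6), chr6:100228565-100287358 (Rybp), chr17:34020792-34024680 (Ring1) and chr1:151469398-151500991 (Rnf2). Windows were found for 7 of the 8 genes (none for Rybp). Max held CACGTG starting at position -3, where position 0 is the first base of the RefSeq start. E2f6 held TCCCGC at -53 and Rnf2 held it at -228 and 30. The windows of Pcgf6, Mga, L3mbtl2 and Ring1 held none of the 3 motifs. That of Mga (chr2:119896978-119897277) lies inside the gene's coordinates given above, so the first base of those coordinates was not searched. The 30 bases around 1 match each of Max (chr12:76962234-76962263, - strand), E2f6 (chr12:16810900-16810929, + strand) and Rnf2 (chr1:151501202-151501231, - strand) are shown because Max and E2f6 are themselves readers of these motifs, and the match of Rnf2 at 30 is not printed.
Max: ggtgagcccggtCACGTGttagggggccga
E2f6: ggaccggtgtgcGCGGGAgatctaacggac
Rnf2: gaaacctcagcaGCGGGAgggaaggcgcaa

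Facts of the libraries that touch the results come first. Total counts ran from 18086421 to 35911590 in the ribosome-depleted ESC and 32 h libraries, from 28538287 to 36365192 at 16 h and from 19013882 to 28777604 in the polyA libraries. Ehmt1 RNA fell in Ehmt1 KO cells by 2.03 ± 0.17 (SE) at ESC and by 2.49 ± 0.17 at 32 h on the log2 scale, and in double KO cells by 1.76 ± 0.17 and 2.35 ± 0.17. Zfp281 RNA was at 278 and 280 CPM in Zfp281 KO ESC and at 238 and 302 CPM in WT ESC, and Zic2 RNA was at 107 and 149 CPM in Zic2 KO ESC and at 111 and 105 CPM in WT ESC, so the RNA level does not check those labels. In bulk RNA, fewer cells of a type and less RNA per cell cannot be told apart. The 7 embryonic stem cell markers Pou5f1, Sox2, Nanog, Zfp42, Esrrb, Klf4 and Tfcp2l1 had counts in all libraries, with summed levels from 1510 to 4545 CPM, while 6 fibroblast markers summed to 2.51 to 17.7 CPM and 5 primitive endoderm markers to 2.64 to 21.9 CPM. At ESC and 32 h the line Zfp281_WT differed from the rest: 89.1% and 87.0% of 1096 olfactory receptor genes had a count in it, against 11.1% to 24.6% in the other ribosome-depleted libraries of those stages, so the values without it are given where they differ.

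Per kb of exon, L3mbtl2 was the highest of the 8 genes in WT cells and Ring1 the lowest in both kits. This scale is a rough way to set genes side by side. It rests on union exon length, and the order of the genes in between differed between the kits. In ribosome-depleted WT ESC, L3mbtl2 was at 69.1 and 66.8 CPM per kb. Rnf2 (63.0 and 52.6) and Mga (55.5 and 56.6) followed, with overlapping ranges. Below them came Max (31.9 and 29.9 CPM per kb), then Pcgf6 (27.2 and 21.3) and Rybp (24.0 and 24.7), which overlapped, then E2f6 (12.9 and 11.9) and Ring1 (1.87 and 2.01). In polyA WT ESC the order was L3mbtl2 (108 and 92.6 CPM per kb), Max (57.4 and 50.4), Pcgf6 (49.1 and 47.7), Rybp (42.7 and 51.0), Rnf2 (37.7 and 47.0), Mga (17.3 and 34.2), E2f6 (15.6 and 18.04) and Ring1 (4.84 and 4.68). Ranges of neighbours overlapped between Pcgf6 and Rybp, between Rybp and Rnf2 and between Mga and E2f6. Of the summed level of the RING paralogues per kb, Ring1 made up 2.26% to 4.32% in the ribosome-depleted libraries and 6.50% to 15.1% in the polyA libraries, so Rnf2 was the main RING transcript in all 28. Among the 6 PCGF genes, Pcgf6 had the highest level per kb in every library, with 36.2% to 53.8% of their sum. In double KO line KO2 at ESC it was nearly level with Pcgf2 (36.18% and 36.12%). Pcgf2 made up 3.38% to 11.5% in the ribosome-depleted libraries and 19.8% to 36.1% in the polyA libraries.

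**Figure D1:**
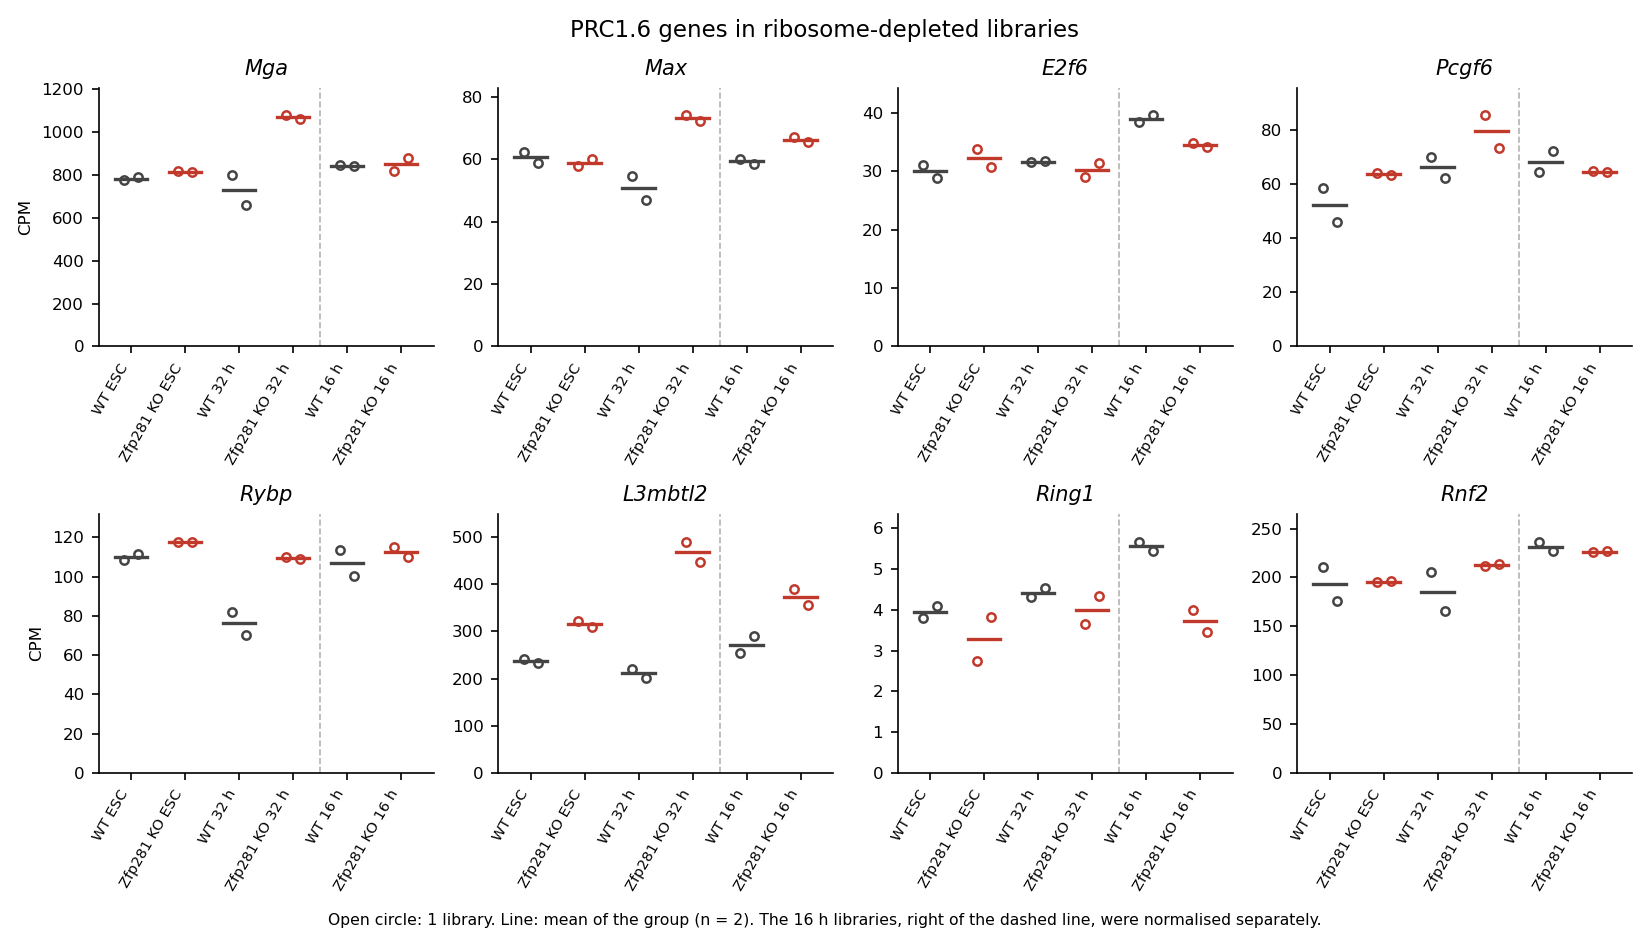
Level of each of the 8 genes in CPM (y axis, from 0) in the ribosome-depleted libraries by genotype and stage (x axis); open circles are single libraries and lines the mean of n = 2. L3mbtl2 is higher in both Zfp281 KO libraries than in both WT libraries at each stage, and Rybp is lowest in the WT libraries at 32 h.

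**Figure D2:**
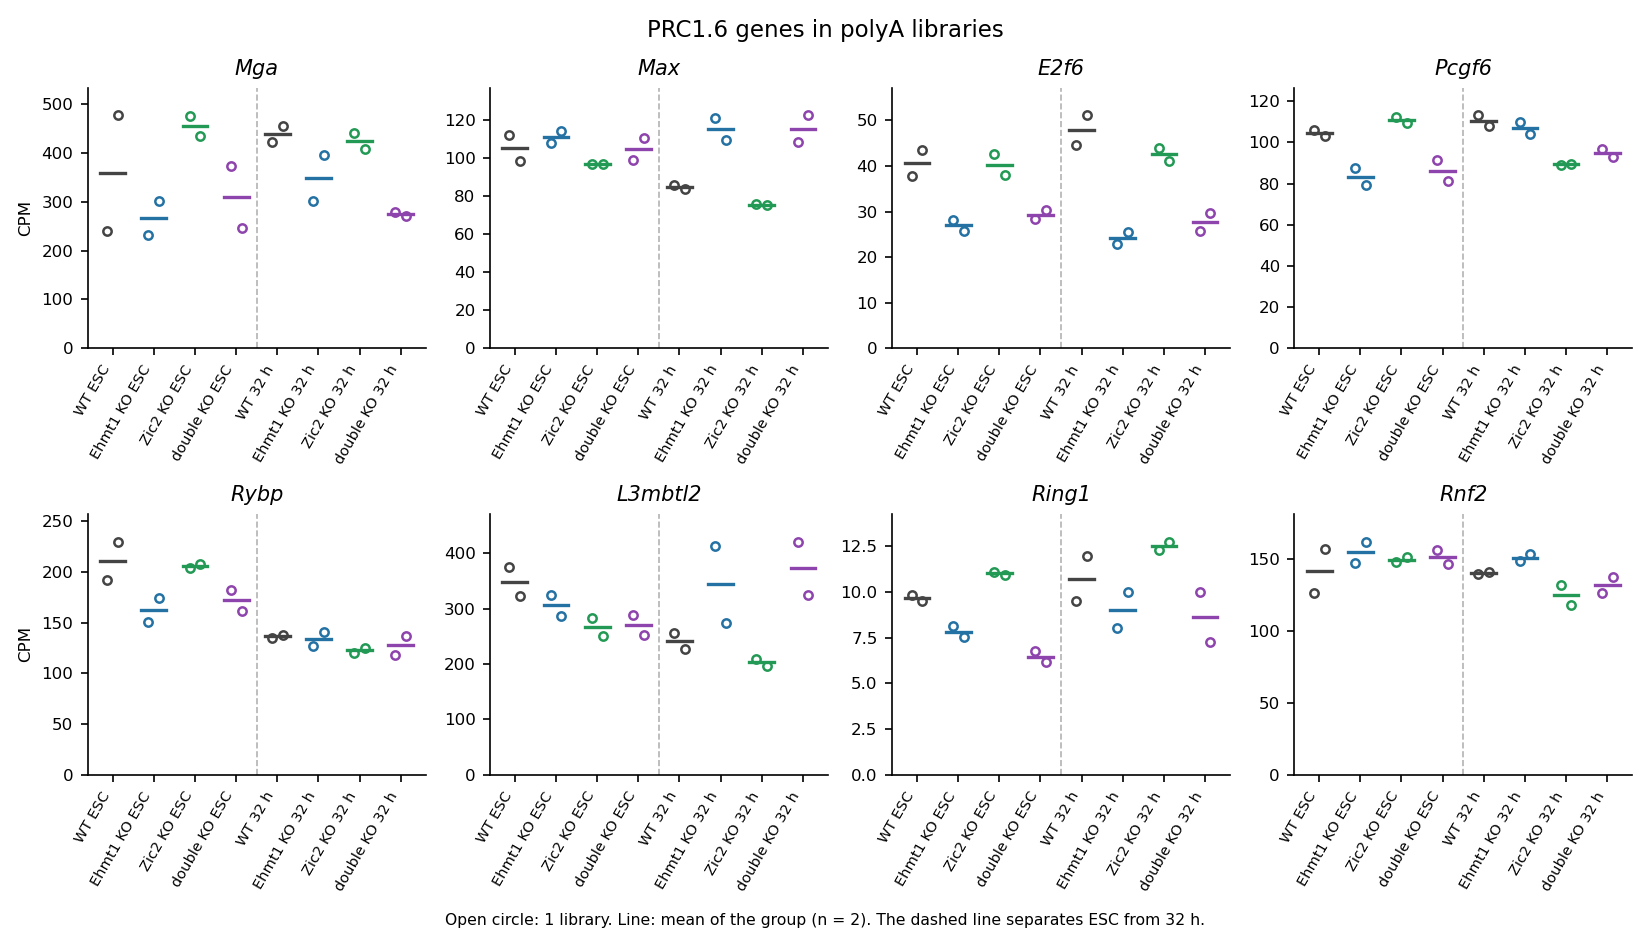
Level of each of the 8 genes in CPM (y axis, from 0) in the polyA libraries by genotype and stage (x axis); open circles are single libraries and lines the mean of n = 2. E2f6 is at 23.0 to 30.4 CPM in the 8 Ehmt1 KO and double KO libraries and at 37.8 to 51.1 CPM in the 8 WT and Zic2 KO libraries.

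Tested over all 19 comparisons with edgeR's quasi-likelihood test (Benjamini-Hochberg adjusted p under 0.05, adjusted over all genes tested), L3mbtl2 was called 9 times, Max 7, Rybp 6, Pcgf6 and E2f6 4 each, Mga and Ring1 2 each and Rnf2 0 times. Over all genes tested, the share called ran from 0% to 39.4% by comparison. The number of calls per gene was not counted for the other genes, so these counts do not set the 8 apart. Comparisons with the same WT libraries share those samples, so their values are given side by side and not as independent support. With 2 libraries a group, many calls rest on single libraries, and for the 8 genes the library whose removal ends a call is named beside it. For other genes it is named for Yaf2 only. Germline targets were only counted as a set when a library was left out, so their single calls are not shown to hold. The labels do not say whether lines were grown on separate occasions, so the p-values measure the spread between these libraries.

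The first question was how the complex's genes change when WT cells leave the naive state. Rybp fell in both kits, from 108 and 111 CPM to 82.2 and 70.5 CPM in the ribosome-depleted set and from 192 and 229.8 CPM to 135 and 138 CPM in the polyA set. Both libraries at 32 h lay below both at ESC in each kit. The log2 change was -0.52 ± 0.09 (adjusted p = 0.00175) and -0.63 ± 0.12 (adjusted p = 0.00122), and it was called under every alternative tried for it. In the ribosome-depleted set Rybp was the only one of the 8 genes called, 1 lower and 0 higher, where 25.9% of 18971 genes were called. In the polyA set 3 were called lower and 0 higher, where 35.7% of 15667 genes were called.

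The other genes called lower in polyA WT cells were Max and L3mbtl2. Max was at 112 and 98.7 CPM at ESC and at 85.7 and 83.5 CPM at 32 h, a change of -0.32 ± 0.10 (adjusted p = 0.0270). L3mbtl2 was at 375 and 323 CPM at ESC and at 255 and 227 CPM at 32 h, a change of -0.53 ± 0.18 (adjusted p = 0.0318). For both genes the 32 h libraries lay below the ESC libraries. Without the line Ehmt1_WT at ESC their changes were -0.22 and -0.42 (adjusted p = 0.180 and 0.189), and the calls were also lost without either WT library at 32 h (adjusted p = 0.0737 to 0.177). In the ribosome-depleted set the estimates were -0.25 ± 0.09 for Max and -0.17 ± 0.08 for L3mbtl2 (adjusted p = 0.0721 and 0.207). With the line as a replicate block both fell there (adjusted p = 0.00732 and 0.0231) and Pcgf6 rose by 0.34 (adjusted p = 0.00137, against 0.0804 without the block), so that 4 genes were called. Over all genes that fit called 7525, against 4921 without the block. Without the line Zfp281_WT, Max and L3mbtl2 were called there as well (-0.29 and -0.22, adjusted p = 0.00665 and 0.0203).

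Mga, the scaffold that carries both a T-box and a bHLH domain, differed between replicates. In polyA WT ESC it was at 241 CPM in Ehmt1_WT and at 477 CPM in Zic2_WT, against 423 and 455 CPM at 32 h. The change of 0.29 ± 0.26 was not called (adjusted p = 0.418), and without Zic2_WT at ESC it was 0.85 (adjusted p = 0.0163). E2f6 (0.08 and 0.23), Ring1 (0.17 and 0.15) and Rnf2 (-0.06 and -0.01) were not called in either kit, with the ribosome-depleted estimate given first. For Rnf2 the 95% intervals were -0.32 to 0.20 and -0.25 to 0.22 on the log2 scale.

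Yaf2, which can take the place of Rybp, went the opposite way. It was at 7.73 and 6.18 CPM in ribosome-depleted WT ESC and at 14.03 and 12.3 CPM at 32 h, and at 5.23 and 3.71 CPM in polyA WT ESC and at 7.98 and 8.88 CPM at 32 h. In both kits the 32 h libraries lay above the ESC libraries, with a rise of 0.91 ± 0.14 (adjusted p = 0.00133) and of 0.91 ± 0.22 (adjusted p = 0.00655). The polyA call was lost without Zic2_WT at ESC (0.68, adjusted p = 0.0657). Per kb of exon, Yaf2 went from 16.1% and 12.98% of the sum of Yaf2 and Rybp to 31.4% and 32.0% in the ribosome-depleted set. In the polyA set its share went from 6.81% and 4.15% to 13.7% and 14.7%.

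**Figure D3:**
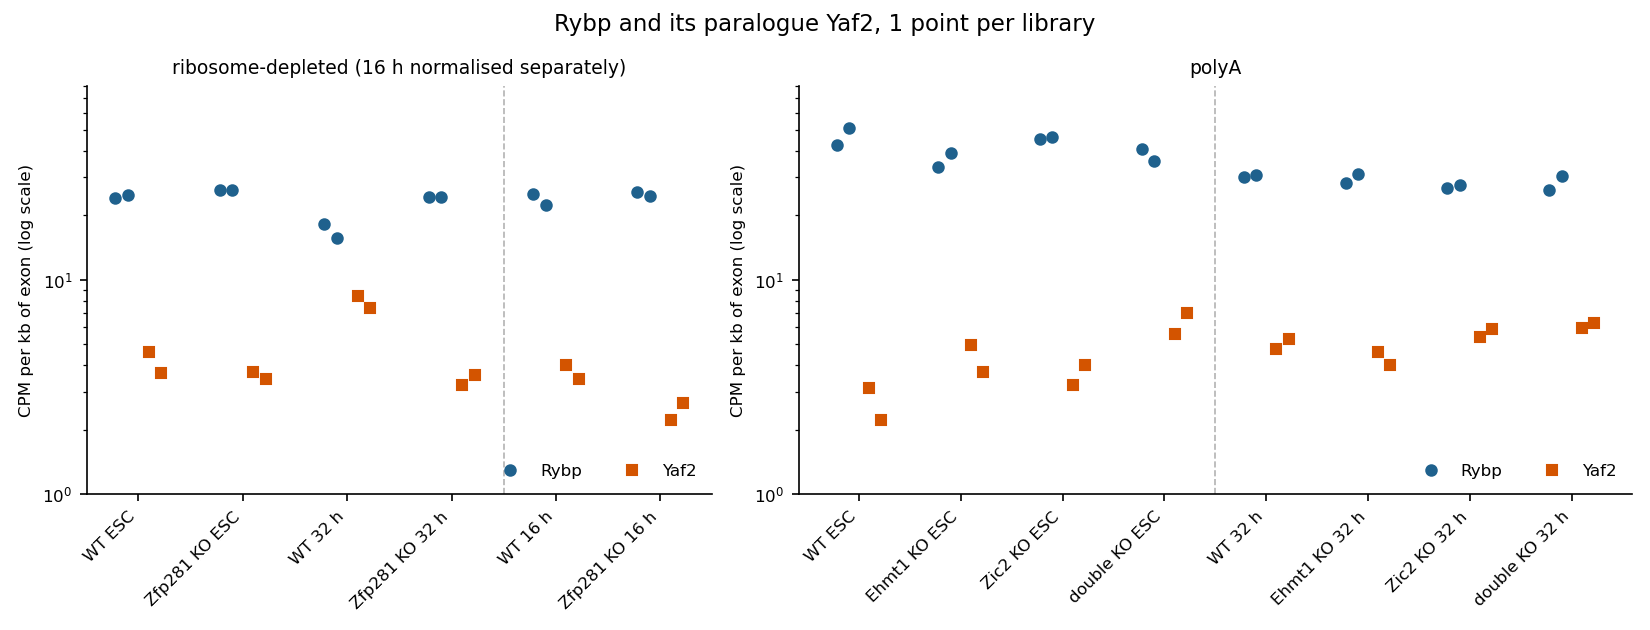
Levels of Rybp (blue circles) and Yaf2 (orange squares) in CPM per kb of exon on a log axis, 1 point per library, by genotype and stage for both kits. At 32 h the gap between the genes is narrowest in the ribosome-depleted WT libraries, where Yaf2 makes up 31.4% and 32.0% of the sum of both.

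Of the 10 other partners of the complex, 6 rose and 1 fell on exit from 2i in the ribosome-depleted WT cells, and 5 rose and 1 fell in the polyA WT cells, where 25.9% and 35.7% of all genes were called. Tfdp2, a DP partner of E2f proteins, rose by 1.14 ± 0.07 and 1.42 ± 0.16 (adjusted p = 5.58e-06 and 2.18e-05). Cbx1, an HP1 protein that reads H3K9 methylation, rose by 0.85 ± 0.09 and 0.81 ± 0.16, and Ehmt1 rose by 0.67 ± 0.09 and 0.80 ± 0.16. Wdr5 fell by 0.45 ± 0.11 and 0.65 ± 0.11. Of the 18 other PRC1 subunits, 5 rose and 2 fell in the first kit and 6 rose and 1 fell in the second, beside the same 25.9% and 35.7% of all genes. The 7 embryonic stem cell markers moved in the same comparison, with 5 and 6 called lower, and their part in these values was not tested.

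The targets of the complex rose as the WT cells left 2i. Of the 22 germline targets, 19 rose and 0 fell in the ribosome-depleted set, where 25.9% of all genes were called in either direction, with a median log2 change of 1.49 against 0.02 over all genes tested. In the polyA set 17 rose and 0 fell, where 35.7% were called, with a median of 1.55 against 0.01. Meioc, needed to sustain meiotic prophase, was at 21.8 and 22.2 CPM at ESC and at 120.0 and 114 CPM at 32 h in the ribosome-depleted set (2.41 ± 0.08, adjusted p = 3.66e-07). Mael, shown above with CACGTG at -223, was at 14.6 and 13.6 CPM and then at 54.9 and 63.4 CPM (2.06 ± 0.11, adjusted p = 1.77e-06). In both genes the stages did not overlap. The list was written from textbook knowledge with results on some of its genes in these data already known.

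The second question was how the 8 genes differ without Zfp281, a zinc finger transcription factor needed for exit from naive pluripotency. L3mbtl2 was higher in Zfp281 KO cells at all 3 stages. At ESC it was at 241 and 233 CPM in WT and at 322 and 309.6 CPM in KO libraries, at 16 h at 254 and 289 CPM in WT and at 389 and 355 CPM in KO, and at 32 h at 221 and 201 CPM in WT and at 489.9 and 448 CPM in KO. WT and KO libraries did not overlap at any stage. The log2 differences were 0.42 ± 0.08 (adjusted p = 0.0122), 0.45 ± 0.10 (adjusted p = 0.00830) and 1.15 ± 0.09 (adjusted p = 2.72e-05). The 32 h call held under every alternative tried for it, the ESC call was lost without KO1 or KO2 at ESC (adjusted p = 0.254 and 0.207), and the 16 h call was lost without KO1 at 16 h (adjusted p = 0.0875). L3mbtl2 overlaps the gene Chadl by 2150 bp, and Chadl had at most 324 counts in any library against at least 4672 for L3mbtl2.

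At 32 h 3 more of the 8 genes were higher in Zfp281 KO cells. Mga was at 797 and 659 CPM in WT and at 1077 and 1059 CPM in KO libraries (0.55 ± 0.10, adjusted p = 0.00268). Max, its dimer partner, was at 54.7 and 46.9 CPM in WT and at 74.0 and 72.2 CPM in KO libraries (0.52 ± 0.09, adjusted p = 0.00241). Rybp was at 82.2 and 70.5 CPM in WT and at 109.8 and 109 CPM in KO libraries (0.52 ± 0.09, adjusted p = 0.00190). WT and KO libraries did not overlap for any of the 3 genes, and without KO1 at 32 h their adjusted p was 0.0690, 0.0630 and 0.0550. In all, 4 of the 8 were called higher and 0 lower at 32 h, where 28.5% of 18971 genes were called. At ESC the count was 1 higher and 0 lower, where 13.8% were called. That ESC share changed widely in fits with 1 library left out, which leave 1 library in a group.

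At 16 h 1 of the 8 genes was called higher and 1 lower, where 28.6% of 15139 genes were called. The lower one was Ring1, at 5.68 and 5.44 CPM in WT and at 4.005 and 3.45 CPM in KO libraries, counts of 101 to 191 per library. The libraries did not overlap, and the difference was -0.58 ± 0.18 (adjusted p = 0.0440). It was not called by DESeq2 (adjusted p = 0.164) or without KO1 or KO2 at 16 h (adjusted p = 0.142 and 0.325). At ESC and 32 h the differences of Ring1 were -0.26 ± 0.21 and -0.15 ± 0.20 and were not called.

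Pcgf6, E2f6 and Rnf2 were not called at any stage in this genotype. Pcgf6 was at 46.1 to 85.5 CPM in the ESC and 32 h libraries, E2f6 at 28.8 to 33.9 CPM and Rnf2 at 165 to 214 CPM. The 95% intervals of the 32 h differences were -0.02 to 0.54 for Pcgf6, -0.27 to 0.14 for E2f6 and -0.06 to 0.46 for Rnf2. Without the line Zfp281_WT, Rnf2 at ESC turned from 0.02 to -0.17 (adjusted p = 0.0148), and without the line WT at ESC Pcgf6 was called higher by 0.59 (adjusted p = 0.00300). Without the line WT at 32 h, Rnf2 was called higher by 0.37 (adjusted p = 0.0462).

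The change over 32 h was then tested within Zfp281 KO cells and against that of WT cells. In KO cells 3 of the 8 genes rose and 0 fell, where 24.7% of genes were called: L3mbtl2 by 0.57 ± 0.08 (adjusted p = 0.00117), Mga by 0.39 ± 0.10 (adjusted p = 0.0172) and Max by 0.31 ± 0.09 (adjusted p = 0.0323). The calls of Mga and Max were lost without any 1 of the 4 KO libraries (adjusted p = 0.219 to 0.695), and that of L3mbtl2 without KO1 or KO2 at ESC or KO1 at 32 h (adjusted p = 0.0922 to 0.175). With DESeq2's size factors in place of TMM, Mga and Max were at an adjusted p of 0.0572 and 0.111, and with no filter on low counts at 0.194 and 0.353. DESeq2 itself did not call Max (adjusted p = 0.106). Rybp was at 118 and 118 CPM at ESC and at 109.8 and 109 CPM at 32 h in these cells and was not called (-0.11 ± 0.09, adjusted p = 0.455). With the line as a replicate block Pcgf6 rose by 0.32 (adjusted p = 0.00230), against 0.32 ± 0.12 (adjusted p = 0.0969) without it. Without the line Zfp281_WT, Pcgf6 rose (0.25, adjusted p = 0.00722) and Rybp fell (-0.18, adjusted p = 0.00502).

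The difference between the KO and WT responses was called for L3mbtl2 and Max, 2 higher and 0 lower, where 4.15% of genes were called. It was 0.73 ± 0.12 for L3mbtl2 (adjusted p = 0.0113) and 0.57 ± 0.13 for Max (adjusted p = 0.0422). Both calls were lost without any 1 of the 4 KO libraries (adjusted p = 0.0648 to 0.532), and that of Max also without WT at ESC or Zfp281_WT at 32 h (adjusted p = 0.0545 and 0.0813). Without the filter on low counts the adjusted p was 0.0543 for L3mbtl2 and 0.173 for Max, and 0 of the 8 genes were called. With the line as a replicate block 4 genes were called: L3mbtl2, Max, Mga (0.50, adjusted p = 0.00244) and Rybp (0.42, adjusted p = 0.00631). Over all genes that fit called 2605, against 787 without the block. Mga and Rybp had 0.49 ± 0.14 and 0.42 ± 0.12 without the block (adjusted p = 0.0942 and 0.107).

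Yaf2 did not pass the test for a change on exit from 2i in Zfp281 KO cells. It was at 6.22 and 5.76 CPM at ESC and at 5.43 and 6.03 CPM at 32 h, and the KO libraries at 32 h lay below both WT libraries. Its difference from WT was -0.61 ± 0.19 at 16 h (adjusted p = 0.0403). At 32 h it was -1.20 ± 0.14 (adjusted p = 0.000327), and the difference between the responses was -0.98 ± 0.21 (adjusted p = 0.0320). That last call was lost with DESeq2 (adjusted p = 0.0814), without the line WT at 32 h (adjusted p = 0.0801) and without any 1 of the 4 KO libraries (adjusted p = 0.143 to 0.272), and the 16 h call was lost with DESeq2 (0.127) and without KO1 or KO2 (0.296 and 0.0992). The share of Yaf2 in the sum with Rybp per kb was 11.7% and 12.9% in Zfp281 KO cells at 32 h, against 31.4% and 32.0% in WT cells.

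Among the other 10 partners, 2 were higher and 4 lower in Zfp281 KO cells at 32 h, with 1 and 2 at ESC and 2 and 7 at 16 h. Over all genes 28.5% were called at 32 h, 13.8% at ESC and 28.6% at 16 h. Tfdp1, a DP partner of E2f proteins, was at 173 and 158 CPM in WT and at 95.9 and 86.1 CPM in KO libraries at 32 h (-0.86 ± 0.11, adjusted p = 0.000376), and it was also lower at ESC (-0.59 ± 0.11) and 16 h (-1.07 ± 0.08). Cbx3 was lower at all 3 stages (-0.32, -0.52 and -0.40), and Wdr5 was higher at all 3 (0.53, 0.42 and 0.41). Ehmt2 was higher at 16 h (0.30 ± 0.08) and 32 h (0.71 ± 0.11). Of 8 other dimer partners of Max, 4 were higher and 0 lower at ESC and 4 higher and 1 lower at 32 h. At 32 h 4 of the 7 embryonic stem cell markers were also higher in KO cells, with sums of 2490 and 2642 CPM against 1989 and 1510 CPM in WT, and their part in these differences was not tested.

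The germline targets split in Zfp281 KO cells. At ESC 7 were higher and 4 lower, at 16 h 6 and 8 of 21 tested, and at 32 h 7 and 7 of 22, with medians of 0.24, 0.03 and 0.06 on the log2 scale. The shares over all genes were 13.8%, 28.6% and 28.5%, with medians of -0.04, -0.01 and -0.07. Hormad1 was at 10.7 and 6.23 CPM in WT ESC and at 73.9 and 79.4 CPM in KO ESC (3.13 ± 0.26, adjusted p = 0.000307). Sycp3 was at 17.0 and 18.3 CPM in WT ESC and at 8.72 and 9.90 CPM in KO ESC (-0.92 ± 0.11, adjusted p = 0.000867). Both windows shown above hold CACGTG in 2 places and TCCCGC in 1, and that of Sycp3 also holds TCACACCT. The genes differed from WT in opposite directions, and the part of the motifs was not tested. Sycp3 was named here after its values were seen. Over the 32 h response 3 targets rose less in KO than in WT cells (Meioc, Taf7l and Sycp3) and 0 rose more. In that comparison 4.15% of all genes were called.

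The third question was how the genes differ without Ehmt1, with or without Zic2. E2f6 was lower in both Ehmt1 KO and double KO cells at both stages. At ESC it was at 37.8 and 43.6 CPM in WT, at 28.2 and 25.7 CPM in Ehmt1 KO and at 28.3 and 30.4 CPM in double KO libraries. At 32 h it was at 44.6 and 51.1 CPM in WT, at 23.0 and 25.5 CPM in Ehmt1 KO and at 25.8 and 29.6 CPM in double KO libraries. No KO library overlapped the WT libraries of its stage. The log2 differences from WT were -0.59 ± 0.13 (adjusted p = 0.00453) and -0.98 ± 0.13 (adjusted p = 0.000168) in Ehmt1 KO cells at ESC and 32 h. In double KO cells they were -0.47 ± 0.13 (adjusted p = 0.0114) and -0.79 ± 0.13 (adjusted p = 0.000487). Both 32 h calls held under every alternative tried for them. At ESC the Ehmt1 KO call was lost when the fit held no other groups (adjusted p = 0.0534), and the double KO call in that fit (0.142), without the line Zic2_WT at ESC (0.0847) and without KO1 at ESC (0.0713).

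Max and L3mbtl2 were higher than in WT cells at 32 h in both genotypes. Max was at 85.7 and 83.5 CPM in WT, at 121 and 109.7 CPM in Ehmt1 KO and at 109 and 122 CPM in double KO libraries at 32 h. The difference was 0.45 ± 0.10 in each genotype (adjusted p = 0.00641 and 0.00413). L3mbtl2 was at 255 and 227 CPM in WT, at 414 and 275 CPM in Ehmt1 KO and at 421 and 325 CPM in double KO libraries, with differences of 0.51 ± 0.18 (adjusted p = 0.0475) and 0.63 ± 0.18 (adjusted p = 0.0134). WT and KO libraries of these genes did not overlap at 32 h, while KO1 of each genotype stood well above KO2 for L3mbtl2. Without KO1 at 32 h the L3mbtl2 difference in Ehmt1 KO cells was 0.19 (adjusted p = 0.517) and that in double KO cells 0.44 (adjusted p = 0.114). Without Zic2_WT at 32 h these were 0.43 (adjusted p = 0.237) and 0.55 (adjusted p = 0.102), and without Ehmt1_WT at 32 h the Ehmt1 KO difference was 0.60 (adjusted p = 0.105). The Max call in Ehmt1 KO cells was lost without Zic2_WT or KO1 at 32 h (adjusted p = 0.0580 and 0.0612), and that in double KO cells held under every alternative tried for it.

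At ESC the called genes were all lower. Pcgf6 was at 106 and 103 CPM in WT, at 87.5 and 79.2 CPM in Ehmt1 KO and at 91.5 and 81.2 CPM in double KO libraries (-0.33 ± 0.09 and -0.28 ± 0.09, adjusted p = 0.0197 and 0.0305). Rybp was at 192 and 229.8 CPM in WT and at 151 and 175 CPM in Ehmt1 KO libraries (-0.37 ± 0.12, adjusted p = 0.0313). Ring1 was at 9.84 and 9.52 CPM in WT and at 6.74 and 6.18 CPM in double KO libraries (-0.58 ± 0.19, adjusted p = 0.0303). None of these KO libraries overlapped the WT libraries. The Pcgf6 calls were lost without Ehmt1_WT or KO2 at ESC (adjusted p = 0.0748 and 0.143 in Ehmt1 KO, 0.0987 and 0.138 in double KO cells) and, in double KO cells, without Zic2_WT (0.0578). The Rybp call was lost without Zic2_WT or KO1 at ESC (-0.21 and -0.27, adjusted p = 0.233 for both), and the Ring1 call without any 1 of the 4 libraries (adjusted p = 0.0717 to 0.108). When only the groups compared were fitted, 0 of the 8 genes were called at ESC in either genotype by edgeR, while DESeq2 on all groups called 3 in each.

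Set against all genes, the counts at ESC were 3 of 8 lower and 0 higher in Ehmt1 KO cells, where 26.9% of 15667 genes were called, and 3 lower and 0 higher in double KO cells, where 39.4% were called. At 32 h they were 2 higher and 1 lower in Ehmt1 KO cells, where 26.6% were called, and 2 higher and 1 lower in double KO cells, where 39.1% were called. Mga was at 231 and 301 CPM in Ehmt1 KO ESC and at 279 and 272 CPM in double KO cells at 32 h. The latter lay below 423 and 455 CPM in WT, with a difference of -0.67 ± 0.26 that edgeR did not call (adjusted p = 0.0585) and DESeq2 called (adjusted p = 0.0361). Rnf2 was not called in either genotype, with levels from 126 to 162 CPM. Without Ehmt1_WT at ESC, Mga in Ehmt1 KO ESC was called lower (-0.84, adjusted p = 0.0262), as was Rybp in double KO ESC (-0.42, adjusted p = 0.0324), and without Zic2_WT at ESC Rnf2 was called higher in Ehmt1 KO ESC (0.32, adjusted p = 0.0477).

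Within Ehmt1 KO cells, 1 of the 8 genes rose over 32 h and 0 fell, where 22.5% of genes were called. This was Pcgf6, from 87.5 and 79.2 CPM to 110.2 and 104 CPM (0.36 ± 0.09, adjusted p = 0.0134), and the stages did not overlap. The call was lost without KO2 at ESC or KO1 at 32 h (adjusted p = 0.132 and 0.0759). With the line as a replicate block Rybp also fell (-0.28, adjusted p = 0.0483). Within double KO cells 1 of the 8 genes fell and 0 rose, where 14.4% were called: Rybp went from 183 and 161 CPM to 118 and 137 CPM (-0.43 ± 0.12, adjusted p = 0.0273). Without KO1 at ESC or at 32 h that change was -0.36 and -0.35 (adjusted p = 0.150 and 0.155), and with the block L3mbtl2 rose as well (0.45, adjusted p = 0.00397).

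The response over 32 h differed from that of WT cells for L3mbtl2 in double KO cells, by 1.00 ± 0.25 (adjusted p = 0.0374), 1 higher and 0 lower where 5.29% of genes were called. L3mbtl2 was at 289 and 252 CPM in double KO ESC and at 421 and 325 CPM at 32 h, against 375 and 323 CPM and then 255 and 227 CPM in WT, so the orders of the stages were opposite in the libraries of these genotypes. The call was lost without Ehmt1_WT at ESC, without either WT library at 32 h, without KO2 at ESC or without KO1 at 32 h (0.81 to 1.08, adjusted p = 0.0653 to 0.149). Max was called as well in the fit with the line as a replicate block (0.45, adjusted p = 0.0297, against 0.0873). In Ehmt1 KO cells 0 of the 8 responses differed by edgeR or DESeq2, where 1.86% of genes were called by edgeR. There L3mbtl2 had 0.70 ± 0.25 (adjusted p = 0.195), which the block called (0.68, adjusted p = 0.00902). At an unadjusted p under 0.05 the 8 genes held 2, L3mbtl2 and Max (0.37 ± 0.14), and all 15667 genes held 2143.

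Of the 10 other partners, 2 were higher and 3 lower in Ehmt1 KO ESC, 0 and 2 at 32 h, 2 and 3 in double KO ESC and 0 and 5 at 32 h, Ehmt1 itself included. Over all genes 26.9%, 26.6%, 39.4% and 39.1% were called in these comparisons, and the 2 partners at 32 h in Ehmt1 KO cells are under that share. Tfdp1 was at 367 and 339 CPM in WT, at 171 and 218.5 CPM in Ehmt1 KO and at 124 and 117 CPM in double KO libraries at 32 h (-0.86 ± 0.18 and -1.55 ± 0.18, adjusted p = 0.00379 and 5.00e-05). Yaf2 was higher at ESC in both genotypes (0.70 ± 0.22 and 1.24 ± 0.22, adjusted p = 0.0345 and 0.000998), and the Ehmt1 KO call was lost without Zic2_WT or KO1 at ESC (adjusted p = 0.182 and 0.241). Ehmt2, whose protein pairs with Ehmt1, was not called at either stage. At 32 h 6 of the 7 embryonic stem cell markers were higher in Ehmt1 KO cells, and 6 were higher and 1 lower in double KO cells, with sums of 2237 to 2420 CPM against 1809 and 1866 CPM in WT. Their part in the 32 h differences was not tested.

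Germline targets moved both ways in these genotypes. At ESC 10 were higher and 3 lower in Ehmt1 KO cells and 12 and 3 in double KO cells, with medians of 0.58 and 1.00 on the log2 scale against -0.01 and 0.00 over all genes. At 32 h 5 were higher and 7 lower in Ehmt1 KO cells and 6 and 7 in double KO cells. Over all genes the called shares were 26.9% and 39.4% at ESC and 26.6% and 39.1% at 32 h in these genotypes. Smc1b, the meiotic cohesin subunit, was at 0.570 and 0.751 CPM in WT ESC, at 20.0005 and 11.03 CPM in Ehmt1 KO ESC and at 42.9 and 16.4 CPM in double KO ESC, higher by 4.55 ± 0.57 and 5.48 ± 0.57 (adjusted p = 0.000103 and 1.97e-05). Meioc was lower at 32 h by 2.13 ± 0.22 and 2.06 ± 0.21 (adjusted p = 2.35e-05 and 1.95e-05). Sycp3 was at 11.6 and 11.3 CPM in WT ESC, at 4.59 and 2.80 CPM in Ehmt1 KO ESC and at 4.91 and 5.40 CPM in double KO ESC, with no overlap. As stated above, Sycp3 was named after its values were seen.

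**Figure D4:**
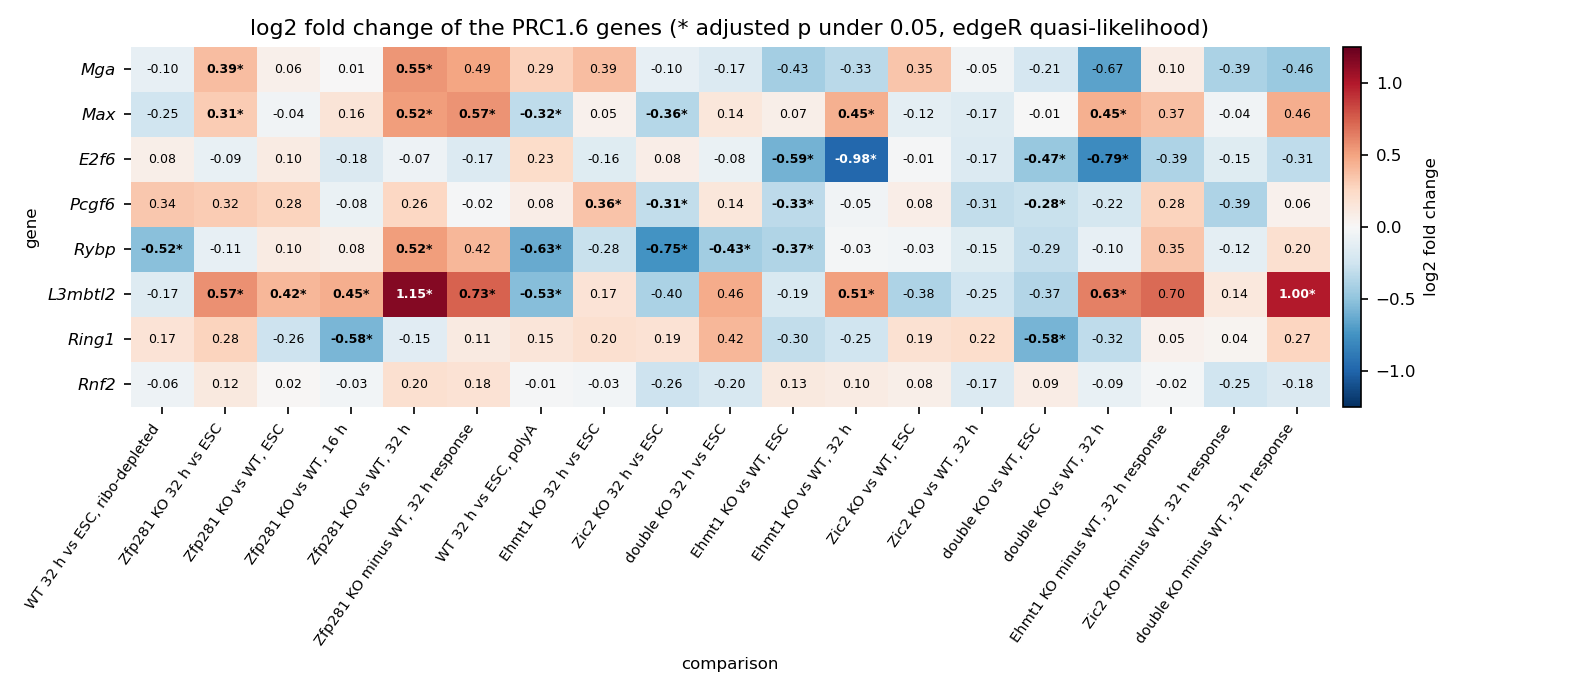
log2 fold change of the 8 genes (y axis) in the 19 comparisons (x axis), with red for higher and blue for lower; an asterisk marks an edgeR adjusted p under 0.05. L3mbtl2 has 9 asterisks, 8 of them higher, E2f6 has 4, all lower and all in genotypes without Ehmt1, and Rnf2 has 0. Over all genes tested, the share called ran from 0% to 39.4% by comparison.

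The fourth question was whether loss of Zic2 alone changes the genes. At ESC 0 of the 8 were called by edgeR, where 0.274% of genes were called, and 0 by DESeq2. At 32 h 0 were called by either tool, where 0.0766% of genes were called by edgeR. At an unadjusted p under 0.05 the 8 genes held 1 at ESC, L3mbtl2 (-0.38 ± 0.18, adjusted p = 0.503), and 1 at 32 h, Pcgf6. Of all 15667 genes, 1545 were under that p at ESC and 1491 at 32 h. Pcgf6 at 32 h was at 113 and 108 CPM in WT and at 89.2 and 89.8 CPM in Zic2 KO libraries, without overlap, with a difference of -0.31 ± 0.09 (adjusted p = 0.271) that was called when only these groups were fitted (adjusted p = 0.00918). L3mbtl2 at 32 h was also called in that fit (-0.24, adjusted p = 0.0381).

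Within Zic2 KO cells 3 of the 8 genes fell over 32 h and 0 rose, where 30.9% of genes were called. Rybp fell from 204 and 208 CPM to 120.5 and 125 CPM (-0.75 ± 0.12, adjusted p = 0.000381) and was called under every alternative tried for it. Max fell from 96.8 and 96.9 CPM to 75.6 and 75.3 CPM (-0.36 ± 0.10, adjusted p = 0.0169), and Pcgf6 from 112 and 109 CPM to 89.2 and 89.8 CPM (-0.31 ± 0.09, adjusted p = 0.0216). The stages did not overlap for any of the 3 genes. Without either Zic2 KO library at 32 h the adjusted p was 0.0863 and 0.0932 for Max and 0.110 and 0.102 for Pcgf6, which was also at 0.0740 without KO1 at ESC and at 0.0570 without the filter on low counts. L3mbtl2 and Rnf2 fell too in the fit with the line as a replicate block (-0.40 and -0.26, adjusted p = 0.00573 and 0.0475). The difference from the WT response was called for 0 of the 8 genes and for 0% of all genes by edgeR, which left 725 of 15667 genes and 1 of the 8, Pcgf6, at an unadjusted p under 0.05, while DESeq2 called 23 genes in all and 0 of the 8.

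Of the germline targets, 10 rose and 1 fell over 32 h in Zic2 KO cells, where 30.9% of all genes were called. Sohlh2, a transcription factor of early germ cells, was higher in Zic2 KO than in WT cells at both stages (1.52 ± 0.20 and 1.56 ± 0.20, adjusted p = 0.0143 and 0.0123). Dazl, an RNA-binding protein of germ cells, was higher at ESC, at 26.1 and 30.9 CPM against 6.51 and 11.4 CPM (1.67 ± 0.25, adjusted p = 0.0162). Between Zic2 KO and WT cells, 0.274% of all genes were called at ESC and 0.0766% at 32 h. Neither ESC call held in every fit with 1 library left out, and single targets were not followed in those fits.

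**Figure D5:**
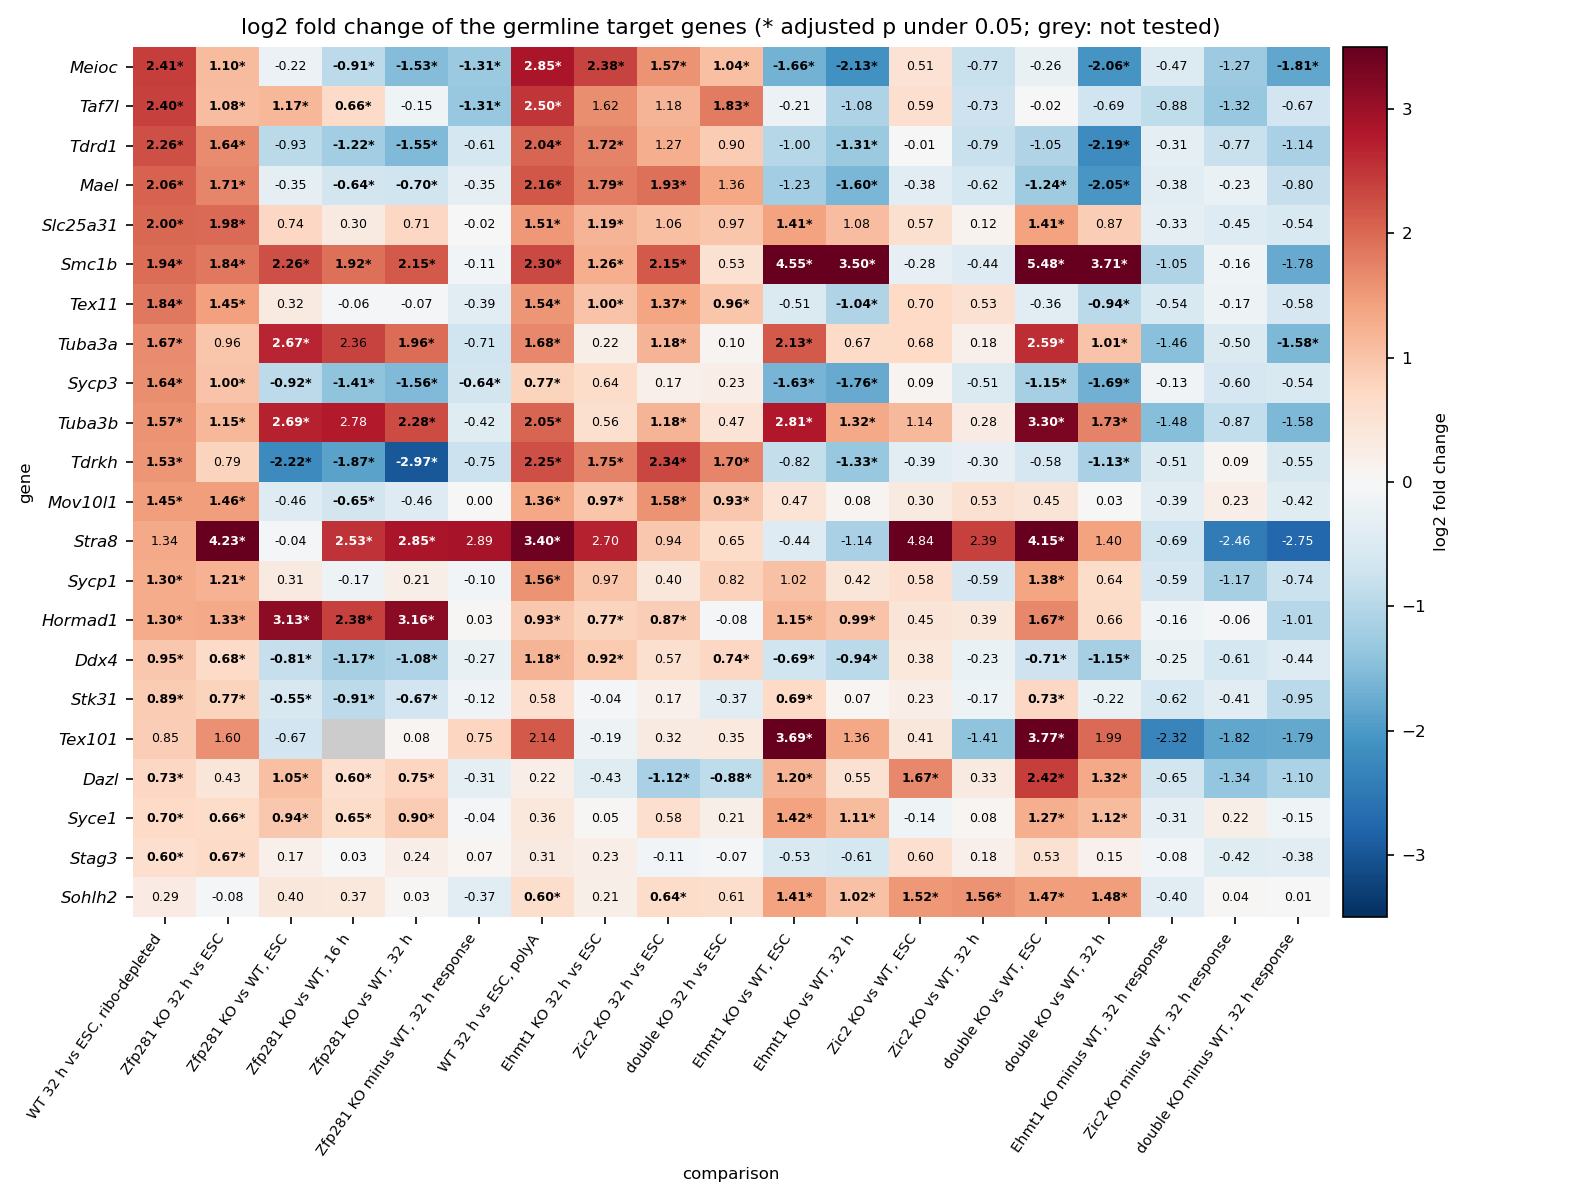
log2 fold change of the 22 germline targets (y axis) in the 19 comparisons (x axis), with red for higher and blue for lower; an asterisk marks an edgeR adjusted p under 0.05 and grey a gene not tested. The columns of the WT cells over 32 h hold 19 and 17 asterisks, all higher, while the columns of Zfp281 KO, Ehmt1 KO and double KO against WT at 32 h hold both directions.

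Across the 16 polyA libraries the genes did not form a single pattern. Of the 28 pairs among the 8 genes, the highest Pearson r of log2 CPM was 0.79 for Max with L3mbtl2 and the lowest -0.77 for Max with E2f6. These libraries share genotypes, stages and lines, so the values describe the set and carry no p. Over the 8 polyA groups E2f6 had the widest range of means, 1.97 times from 24.2 CPM in Ehmt1 KO cells at 32 h to 47.8 CPM in WT cells at 32 h, and Rnf2 the narrowest, 1.24 times. The 5 genes with a pattern most like that of E2f6 over the 16 libraries were Slc3a1 (r = 0.959), Efcab11 (0.959), Phldb2 (0.954), Stac3 (0.952) and Atf4 (0.943), of 15666 genes compared. In the ribosome-depleted ESC and 32 h libraries the widest range was that of L3mbtl2, 2.22 times, and the narrowest that of E2f6, 1.08 times.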

How the data were processed

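RNA was sequenced from 28 libraries in 14 groups of 2. The deposited tables hold whole-number read counts per Entrez gene ID for 24116 genes, which the authors made against GRCm38 (mm10), per the submitters' processing notes; the sources used here give no aligner, counter or strand setting. A symbol was found for 24061 IDs. The notes also name edgeR. The counts were tested with edgeR 4.0.16 in R 4.3.3 (limma 3.58.1), quasi-likelihood test, TMM scaling, robust fit, filterByExpr with a minimum count of 10 and total of 15, and Benjamini-Hochberg adjustment over all genes of a fit at 0.05. The 8 ribosome-depleted ESC and 32 h libraries, the 4 libraries at 16 h and the 16 polyA libraries were fitted separately (18971, 15139 and 15667 genes tested), each fit sharing one spread. The kit of the line titled WT was read from its title and the protocol. The standard error is the log2 change divided by the square root of F, intervals cover 95%, and values per kb use GENCODE union exon length. The procedure was also run on simulated counts with independent libraries and no line effects. That run does not cover spread shared within a line, and its outcome is not used here. Depth was 18086421 to 36365192 counts per library, and intervals cover the spread between libraries only.

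Alternatives were DESeq2 1.42.0, its size factors in edgeR, no filter, a fit of only the groups compared, the cell line as a replicate block, each library left out, and the line Zfp281_WT left out. The pairing comes from the labels, which give the same line at ESC and 32 h; the deviations of same-line libraries correlated at 0.88 (ribosome-depleted WT), 0.05 (Zfp281 KO), 0.05 (polyA WT), 0.46 (Ehmt1 KO), 0.18 (Zic2 KO) and 0.53 (double KO). The text names all 8 genes, the 10 partners, the genes knocked out, markers as values, and from the germline list up to 4 called genes per comparison with the smallest adjusted p. The genes, lists and tests were chosen with earlier results of these data known.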

Additional observations from a re-analysis of the deposited data

Results flagged for a closer look

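For these genes the response over 32 h in KO cells differed from that in WT cells by an interaction test (edgeR, adjusted p under 0.05). In Zfp281 KO cells, with n = 2 lines a group, the difference in log2 change was 0.57 for Max (adjusted p = 0.0422), 0.73 for L3mbtl2 (adjusted p = 0.0113) and -0.98 for Yaf2 (adjusted p = 0.0320). Among the germline targets it was -1.31 for Taf7l (adjusted p = 0.00630), -0.64 for Sycp3 (adjusted p = 0.0466) and -1.31 for Meioc (adjusted p = 0.00155). In double KO cells it was 1.00 for L3mbtl2 (adjusted p = 0.0374), -1.58 for Tuba3a (adjusted p = 0.0252) and -1.81 for Meioc (adjusted p = 0.00595). The calls of Max, L3mbtl2 and Yaf2 in Zfp281 KO cells were lost without any single KO library. That of L3mbtl2 in double KO cells was lost without some single WT or KO libraries. The germline targets were not followed singly when a library was left out. The double KO and Ehmt1 KO comparisons use the same WT libraries, and the causes were not tested.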

How the results depend on the processing

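Of 152 results for the 8 genes, 34 were called, 7 of them under every alternative run for them, and 220 of the 310 alternatives of the called results kept the call. Over all genes tested, the share called ran from 0% to 39.4% by comparison. Of 1154 alternatives of the other results, 47 gained a call. With n = 2 libraries a group, most other calls were lost in some fit with 1 library left out. In such a fit a group left with 1 library is assumed to vary like the others. A call lost there does not show that it rests on the library left out. The causes of the changes below were not tested.

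With the line as a replicate block, the genes called of the 8 went from 1 to 4 (ribosome-depleted WT over 32 h), from 2 to 4 (Zfp281 KO response against WT), from 1 to 2 (Ehmt1 KO over 32 h), from 3 to 5 (Zic2 KO over 32 h), from 1 to 2 (double KO over 32 h), from 0 to 1 (Ehmt1 KO response) and from 1 to 2 (double KO response). The block ended no call of the 8 genes. Calls over all genes also changed with the block and with the fits of only the groups compared, as given in the last paragraph. DESeq2 called 2 in the ribosome-depleted WT cells, 1 at 16 h and 2 in the double KO response, and its size factors left 1 of 3 in Zfp281 KO cells over 32 h and 1 of 2 in their response. With no filter these became 1 and 0. Fitting only the groups compared gave 5 in Zfp281 KO and 5 in Zic2 KO cells over 32 h, 2 in Zic2 KO against WT at 32 h, and 0 in Ehmt1 KO and double KO cells over 32 h, at ESC and in the double KO response. Without the line Zfp281_WT the counts were 3 (WT over 32 h), 5 (Zfp281 KO over 32 h), 2 (ESC) and 4 (response), and at ESC 2 differences turned sign: Rnf2 to -0.17 and Ehmt1 to -0.16.

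Leaving out 1 library gave 1 to 3 called in ribosome-depleted WT cells, 0 to 1 in Zfp281 KO cells over 32 h, 0 to 2 at ESC, 0 to 2 at 16 h, 1 to 5 at 32 h and 0 to 4 in the response. In the polyA set it gave 1 to 4 in WT, 0 to 1 in Ehmt1 KO, 1 to 3 in Zic2 KO and 0 to 1 in double KO cells over 32 h. Against WT it gave 2 to 3 (ESC) and 1 to 3 (32 h) in Ehmt1 KO, 0 to 2 (ESC) and 2 to 3 (32 h) in double KO cells, and 0 to 1 and 0 to 2 in their responses.

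Over all genes, the block moved the calls from 4921 to 7525 (ribosome-depleted WT), 4679 to 7553 (Zfp281 KO), 3526 to 5509 (Ehmt1 KO) and 2251 to 4310 (double KO) over 32 h, and in the responses from 787 to 2605 (Zfp281 KO), 291 to 1361 (Ehmt1 KO), 0 to 50 (Zic2 KO) and 829 to 2611 (double KO). Fitting only the groups compared gave 2298, 8754, 1653 and 319 over 32 h in the same order, 8112 against 4838 in Zic2 KO cells, 3386 against 6166 in double KO ESC, and 132, 41 and 374 in the polyA responses. DESeq2 called 632, 23 and 1358 in those responses. For Zic2 KO against WT, 43 calls at ESC became 94 with no filter, 271 with DESeq2 and 207 with only these groups, and 12 at 32 h became 48, 170 and 1516. Leaving out 1 library gave 1723 to 2112 in Zfp281 KO cells over 32 h, and against WT 539 to 6537 (ESC), 2137 to 7008 against 4329 (16 h) and 2498 to 4944 against 5400 (32 h), and 62 to 1771 in the response. Over 32 h it gave 3499 to 5157 against 5587 (polyA WT), 2082 to 3027 (Ehmt1 KO), 2965 to 3083 (Zic2 KO) and 1122 to 2803 (double KO). Against WT it gave 2590 to 3657 against 4214 and 2191 to 3732 against 4163 (Ehmt1 KO, ESC and 32 h), 0 to 214 and 2 (Zic2 KO), and 3855 to 5835 and 3745 to 4735 against 6129 (double KO). In the responses it gave 42 to 295 (Ehmt1 KO), 0 to 8 (Zic2 KO) and 280 to 1334 (double KO). Without Zfp281_WT there were 8839 (Zfp281 KO over 32 h), 5511 against 2618 (ESC) and 2988 (response).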
